A study of Mus musculus with 6 samples.

Results

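Smooth muscle contractile genes are the genes whose products form, anchor or regulate the contractile apparatus of smooth muscle. They were taken here as 31 genes chosen by symbol, and all 31 were found among the 20594 genes of the deposited expression table of mouse offspring colon. The question of the study was what maternal gut inflammation does to the intestine of the young. The maternal DSS group held 3 libraries from colon of 3-week-old C57BL/6J offspring whose dams had received 1.5% dextran sulfate sodium (DSS), a polysaccharide that injures the colon lining. The control group held 3 libraries from colon of C57BL/6J offspring of the same age whose dams had received 0% DSS. The labels date the exposure of the dams to embryonic days 13 to 19, whereas the design text gives 5 days in the second trimester. The offspring themselves were not labelled as treated. The titles mention 3 offspring without saying whether that is the number per library or per group, and no litter, dam, sex, colon segment or batch is named, so p-values measure only the spread between these libraries.

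Smooth muscle cells form the muscularis externa, which propels the contents of the gut, the thin muscularis mucosae beneath the crypts, and the walls of blood vessels. They contract when calcium and calmodulin activate myosin light chain kinase, which phosphorylates the light chain of smooth muscle myosin and lets it pull on filaments of smooth muscle actin. The filaments are tied to dense bodies and membrane plaques through intermediate filaments and adaptor proteins, and many of the genes are switched on together by serum response factor (SRF) with its coactivators of the myocardin family.

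Values are FPKM, fragments per length of transcript and per number mapped in the library, so levels of different genes can be set side by side per length. The number of genes at or above 1 FPKM lay between 13249 and 13739, the FPKM of all genes summed to between 403673 and 492719, and the sequencing depth is unknown. Several libraries stood apart on lists of other tissues. The 12 small intestine and Paneth cell genes in the table summed to 66.9, 203 and 203 FPKM in maternal DSS libraries 1, 2 and 3, against 83.1, 65.0 and 86.8 FPKM in controls 1, 2 and 3. The 15 skeletal muscle genes summed to 1355, 80.9 and 133 FPKM in maternal DSS libraries 1, 2 and 3, against 267, 445 and 124 FPKM in controls 1, 2 and 3. The part of either signal in the results below was not tested, and values without maternal DSS 1 are given for many of the genes.

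The colon libraries carried the defining transcripts of smooth muscle at high levels. Averaged over all 6 libraries, Actg2 had 742 FPKM, Tagln 712, Acta2 549, Cnn1 348, Myh11 292 and Des 219 FPKM. All 31 genes passed the expression filter (1 FPKM or more in 3 or more libraries), as did 13594 genes of the table, and none of the 31 was listed at 0 in any library.

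Most of the 31 genes were slightly lower in maternal DSS than in control libraries, and no gene passed the test after adjustment with all libraries weighted alike. In limma 29 had a negative and 2 a positive log2 fold change, with a median of -0.16 against a median of -0.04 over all 13594 tested genes, of which 59.7% were negative. With an adjusted p under 0.05 there were 0 of 31 genes, as there were 0 of 13594 (0%) in the whole table. Without adjustment 3 of the 31 had p under 0.05 and were lower (Srf, Smtn and Lmod1), where 5.41% of all tested genes were lower by that measure, and 0 were higher, where 2.42% of all tested genes were. In 2 of the 31, Srf and Kcnmb1, every maternal DSS library lay below every control library, against 9.14% of all tested genes. With limma's library weights, which gave maternal DSS 2 the highest weight (5.47) and maternal DSS 1 the lowest (0.249), 25 of the 31 had an adjusted p under 0.05, as did 4933 of all 13594 genes. Without weights and with all 6 libraries, the counts at p under 0.05 and without overlap were near their background, while the share of negative fold changes was above it. In a whole tissue fewer muscle cells and less RNA per muscle cell cannot be told apart.

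The libraries of a group also differed among themselves. Maternal DSS 2 lay below all 3 controls for 29 of the 31 genes and maternal DSS 3 for 23, where the shares over all tested genes were 41.2% and 42.7%. Maternal DSS 1 did so for 4 of the 31 (Ppp1r14a, Cnn1, Kcnmb1 and Srf), against 25.3% of all tested genes, and it held the highest value of the 6 libraries for 12. Control 3 in turn lay below controls 1 and 2 for 25 of the 31, against 53.1% of all tested genes. For 21 genes the libraries split the same way, with maternal DSS 2, maternal DSS 3 and control 3 all below maternal DSS 1, control 1 and control 2, as 28.8% of all tested genes did. The median of the 31 genes relative to the control mean was 0.02, -0.32 and -0.26 in maternal DSS 1, 2 and 3, against 0.06, 0.07 and -0.13 in controls 1, 2 and 3, on the log2(FPKM + 1) scale.

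**Figure D1:**
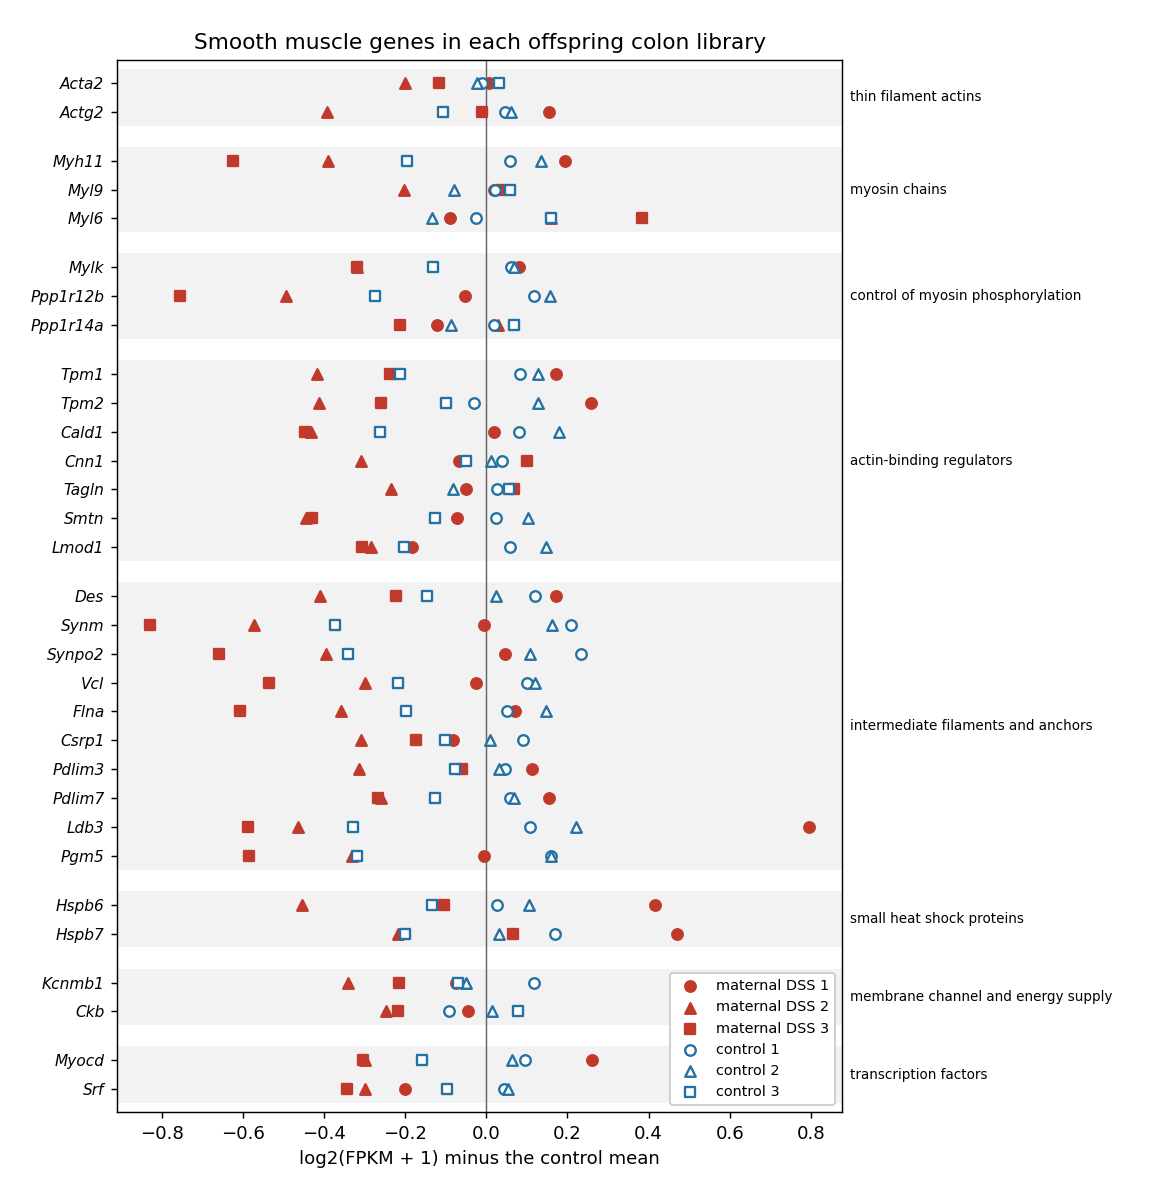
Level of each of the 31 genes in each library, as log2(FPKM + 1) minus the mean of the 3 controls, grouped by role; filled red symbols are maternal DSS libraries and open blue symbols control libraries. Maternal DSS 2 lies below all controls for 29 genes and maternal DSS 3 for 23, while maternal DSS 1 lies among or above the controls for most and stands far to the right for Ldb3, Hspb6 and Hspb7.

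Leaving out maternal DSS 1 changed the counts more than any other single library did. Each library was left out in turn, and this fit was singled out after the values were seen. Maternal DSS 1 lay among or above the controls for most of the 31 genes. Lower fold changes and smaller p-values without it follow from that position, so here and below they only describe the libraries. With maternal DSS 2 and 3 against the 3 controls, 21 of the 31 genes had an unadjusted p under 0.05 in limma, all lower, against 17.0% of all tested genes. The groups did not overlap for 22 of the 31, all lower, against 29.4% of all tested genes. The median log2 fold change was then -0.30, the count with an adjusted p under 0.05 stayed at 0 of 31 (12 of 13594 in the whole table), and the smallest adjusted p was 0.15. The unadjusted count was 9 without control 3, and 1 each without control 1, control 2, maternal DSS 2 or maternal DSS 3.

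**Figure D2:**
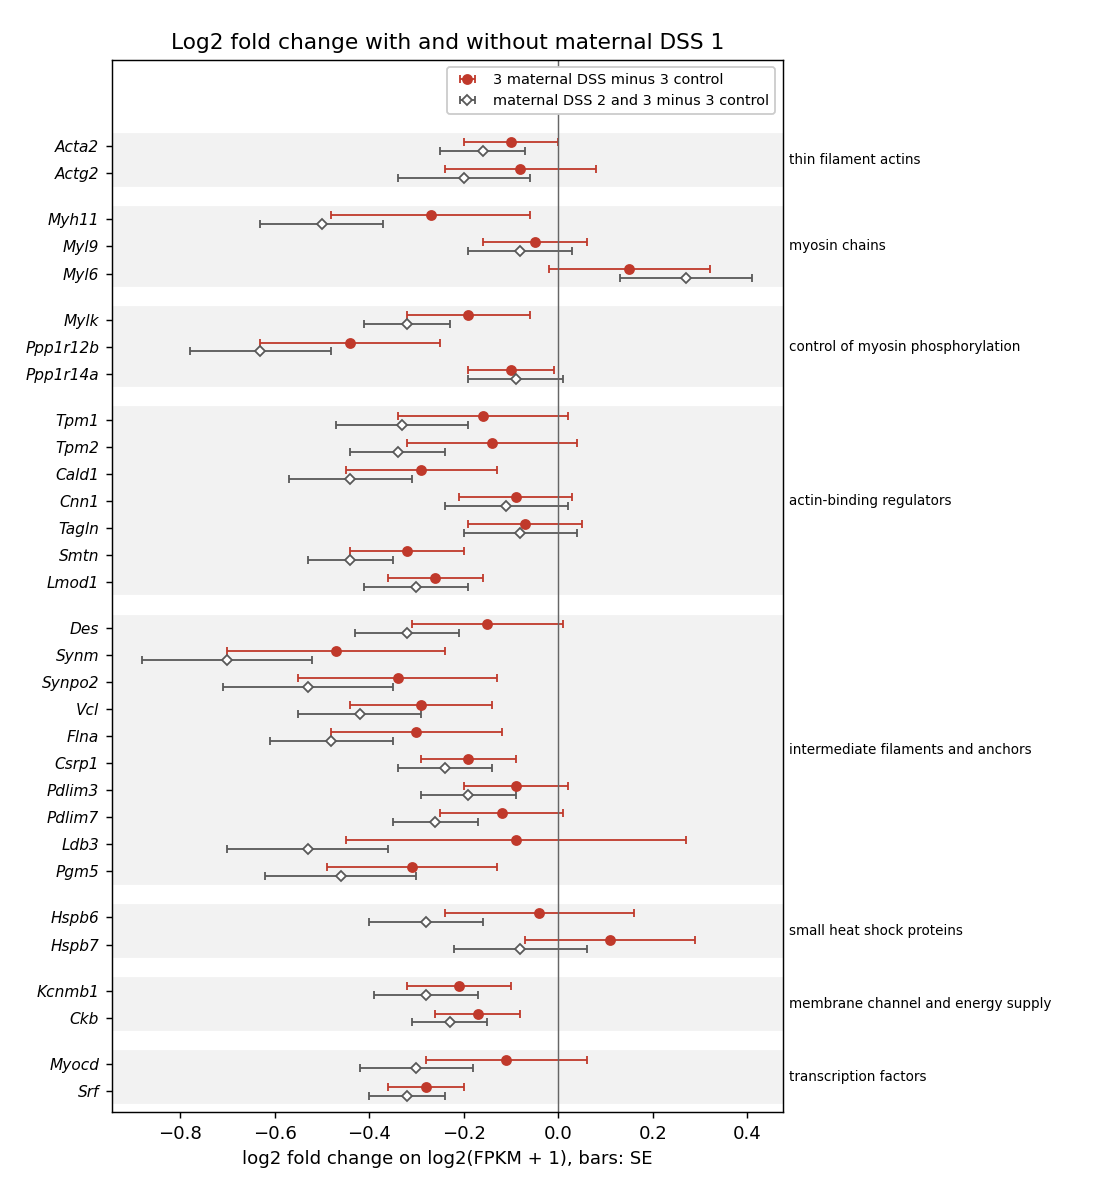
Log2 fold change (maternal DSS minus control, log2(FPKM + 1) scale; bars are standard errors from limma) of each gene with all 6 libraries (filled circles) and with maternal DSS 1 left out (open diamonds). With all libraries the median is -0.16, and without maternal DSS 1 it is -0.30, with the largest shift for Ldb3.

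The 2 transcription factors are Srf, which binds DNA at the CArG box, and Myocd, the muscle-restricted coactivator myocardin that SRF recruits there. Srf (chromosome 17, 46546838 to 46558267) had 12.6, 11.7 and 11.3 FPKM in maternal DSS libraries 1, 2 and 3, against 15.1, 15.2 and 13.6 FPKM in controls 1, 2 and 3. Every maternal DSS library was lower than every control. Its log2 fold change was -0.28 (SE 0.08, 95% interval -0.47 to -0.09, unadjusted p = 0.0098, adjusted p = 0.62 in limma), the smallest unadjusted p among the 31 genes. Over the alternatives tried its unadjusted p ranged from 0.00018 with library weights to 0.045 without control 2, with a negative fold change in each. Myocd had 2.62, 1.46 and 1.45 FPKM in maternal DSS libraries 1, 2 and 3, against 2.23, 2.16 and 1.71 FPKM in controls 1, 2 and 3. Maternal DSS 1 was the highest of the 6 libraries and the other 2 of its group were the lowest, so the groups overlapped (log2 fold change -0.11, SE 0.17). Without maternal DSS 1 it was -0.30 (SE 0.12, unadjusted p = 0.035 in limma). SRF is also made in epithelial and other cells, whereas myocardin is confined to smooth and cardiac muscle.

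Because SRF acts through the CArG box, the RefSeq promoter windows were searched for that motif. The windows (GRCm38.p6, the assembly that mm10 names) ran from 250 bases before to 50 bases after an annotated start. Only the strict form was searched for, CC and GG around a core of A and T as in the boxes printed below. This definition is the same on both strands. Of the 27 genes with a window, 5 (18.5%) held a CArG box, namely Srf, Myl9, Myl6, Vcl and Ldb3, against 488 of 27025 genes with a window (1.81%). The stretches around the boxes are printed 5′ to 3′ on the strand of the gene, with the boxes in capitals. The Srf stretch (chr17:46556163-46556269, minus strand) ends at the last base before the start and holds 2 boxes, which begin 82 and 62 bases before it. In the other stretches the box begins 161 bases before the start for Myl9 (chr2:156775278-156775337, plus strand), 50 for Myl6 (chr10:128493025-128493084, minus strand), 227 for Vcl (chr14:20929148-20929205, plus strand), and 109 or 35 for the 2 annotated starts of Ldb3 (chr14:34588682-34588741, minus strand).
Srf: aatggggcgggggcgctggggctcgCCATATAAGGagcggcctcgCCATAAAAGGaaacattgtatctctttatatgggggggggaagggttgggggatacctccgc
Myl9: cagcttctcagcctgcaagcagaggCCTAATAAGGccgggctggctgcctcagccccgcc
Myl6: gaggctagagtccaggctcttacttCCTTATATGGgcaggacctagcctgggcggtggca
Vcl: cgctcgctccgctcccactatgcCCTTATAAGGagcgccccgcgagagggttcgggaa
Ldb3: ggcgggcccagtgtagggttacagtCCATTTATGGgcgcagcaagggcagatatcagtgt
The 5 genes with a box had a median log2 fold change of -0.09, and the 22 with a window but no box had -0.18. Looser or more distant boxes were not searched for, so these medians do not compare SRF targets with other genes.

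Of the thin filament actins, both lay below all controls in maternal DSS 2, and Acta2 also did in maternal DSS 3. Acta2, the actin of vascular and also visceral smooth muscle (chromosome 19, 34240336 to 34255585), had 571, 494 and 524 FPKM in maternal DSS libraries 1, 2 and 3, against 564, 559.5 and 581 FPKM in controls 1, 2 and 3. Actg2, the actin typical of gut smooth muscle (chromosome 6, 83512909 to 83536251), had 844, 578 and 753 FPKM in maternal DSS libraries 1, 2 and 3, against 783, 791 and 705 FPKM in controls 1, 2 and 3. For Actg2 maternal DSS 1 was the highest library and maternal DSS 2 the lowest, with the controls between them. Their log2 fold changes were -0.10 (SE 0.10) and -0.08 (SE 0.16), with 95% intervals of -0.34 to 0.13 and -0.46 to 0.29. They were -0.16 (SE 0.09) and -0.20 (SE 0.14) without maternal DSS 1. The ratio of Actg2 to Acta2 within a library, which does not depend on the library total, was 1.48, 1.17 and 1.44 in maternal DSS 1, 2 and 3, against 1.39, 1.41 and 1.21 in controls 1, 2 and 3. Maternal DSS averaged 1.36 ± 0.167 and control 1.34 ± 0.11 (SD, n = 3 each; two-sided exact permutation p = 0.7, where 0.1 is the smallest possible). The longest annotated transcripts of both genes align over 1134 bases with 84.2% identity and a longest identical run of 29 bases, so some reads of the actin family may be assigned to the wrong gene.

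Among the myosin chains in maternal DSS 3, Myh11 lay below every control, Myl9 within the range of the controls and Myl6 above it. Myh11, the smooth muscle myosin heavy chain (chromosome 16, 14194527 to 14292188), had 360.3, 240.2 and 204 FPKM in maternal DSS libraries 1, 2 and 3, against 328, 346 and 275 FPKM in controls 1, 2 and 3. Maternal DSS 1 was above every control and maternal DSS 2 and 3 were below every control, which gave a log2 fold change of -0.27 with an SE of 0.21. Without maternal DSS 1 it was -0.50 (SE 0.13, unadjusted p = 0.0057, adjusted p = 0.15 in limma). Myl9, the regulatory light chain that is phosphorylated in smooth muscle, had 636, 545 and 642 FPKM in maternal DSS libraries 1, 2 and 3, against 637, 594 and 653 FPKM in controls 1, 2 and 3. The essential light chain Myl6, which epithelial and other non-muscle cells also make, had 1169, 1389 and 1624 FPKM in maternal DSS libraries 1, 2 and 3, against 1222, 1134 and 1390.1 FPKM in controls 1, 2 and 3. It was the most abundant of the 31 genes and, with Hspb7, had a positive log2 fold change (0.15, SE 0.17), which was 0.27 (SE 0.14) without maternal DSS 1. That of Myl9 was -0.05 with all libraries and -0.08 (SE 0.11) without it.

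The genes that set myosin phosphorylation were lowest in maternal DSS 2 and 3 except for Ppp1r14a. Mylk, myosin light chain kinase, had 161, 122 and 122 FPKM in maternal DSS libraries 1, 2 and 3, against 159, 159.8 and 139 FPKM in controls 1, 2 and 3. Its locus also yields the short muscle transcript telokin, which a single value per gene does not separate. Ppp1r12b, one of the subunits that direct the phosphatase to myosin, had 22.1, 16.0 and 13.2 FPKM in maternal DSS libraries 1, 2 and 3, against 25.0, 25.7 and 18.8 FPKM in controls 1, 2 and 3. Maternal DSS 1 lay between control 3 and the other controls, and the log2 fold change of -0.44 (SE 0.19, 95% interval -0.89 to 0.02, unadjusted p = 0.057) was second in size after that of Synm. Ppp1r14a, which encodes the phosphatase inhibitor CPI-17, had 24.7, 27.5 and 23.1 FPKM in maternal DSS libraries 1, 2 and 3, against 27.3, 25.3 and 28.3 FPKM in controls 1, 2 and 3, with the groups interleaved. The log2 fold change of Mylk without maternal DSS 1 was -0.32 (SE 0.09, unadjusted p = 0.0087 in limma), against -0.19 with all libraries. That of Ppp1r12b without maternal DSS 1 was -0.63 (SE 0.15).

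All 7 actin-binding regulators had negative fold changes, from -0.07 for Tagln to -0.32 for Smtn. Smtn, which encodes smoothelin, a marker of contractile smooth muscle (chromosome 11, 3517522 to 3539292), had 46.2, 35.5 and 35.9 FPKM in maternal DSS libraries 1, 2 and 3, against 49.5, 52.3 and 44.5 FPKM in controls 1, 2 and 3. Only maternal DSS 1 reached into the range of the controls, above control 3 alone (log2 fold change -0.32, SE 0.12, unadjusted p = 0.031, adjusted p = 0.62 in limma). Lmod1, leiomodin, which nucleates actin filaments in smooth muscle (chromosome 1, 135324813 to 135368065), had 12.3, 11.4 and 11.2 FPKM in maternal DSS libraries 1, 2 and 3, against 14.7, 15.7 and 12.1 FPKM in controls 1, 2 and 3. Maternal DSS 1 and control 3 were nearly equal, and every other maternal DSS value lay below every other control value (log2 fold change -0.26, SE 0.10, unadjusted p = 0.039, adjusted p = 0.62 in limma). The unadjusted p of both genes exceeded 0.05 when control 1, control 2, maternal DSS 2 or maternal DSS 3 was left out (Smtn 0.079 to 0.11, Lmod1 0.094 to 0.15). Without maternal DSS 1 the log2 fold changes were -0.44 for Smtn (unadjusted p = 0.0016) and -0.30 for Lmod1 (0.034) in limma.

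Tagln and Cnn1 differed less. Tagln, transgelin or SM22, an early marker of the lineage, had 704, 619 and 764 FPKM in maternal DSS libraries 1, 2 and 3, against 742, 689 and 757 FPKM in controls 1, 2 and 3. Cnn1, calponin, a thin filament protein that restrains the myosin ATPase, had 342, 289 and 384 FPKM in maternal DSS libraries 1, 2 and 3, against 368, 361 and 346 FPKM in controls 1, 2 and 3. For both genes maternal DSS 3 was the highest library and maternal DSS 2 the lowest. Tpm1, a tropomyosin that runs along actin filaments in muscle and in non-muscle cells, had 791, 525 and 595 FPKM in maternal DSS libraries 1, 2 and 3, against 744, 767 and 606 FPKM in controls 1, 2 and 3. Its partner Tpm2 had 314, 197 and 219 FPKM in maternal DSS libraries 1, 2 and 3, against 257, 287 and 245 FPKM in controls 1, 2 and 3, and Cald1, caldesmon, had a log2 fold change of -0.29 (SE 0.16). In both tropomyosins maternal DSS 1 lay above every control and the other maternal DSS libraries below every control. With that library left out, the log2 fold changes were -0.33 for Tpm1 (unadjusted p = 0.046), -0.34 for Tpm2 (0.013) and -0.44 for Cald1 (0.013) in limma, against -0.16, -0.14 and -0.29 with all libraries.

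The 10 intermediate filament and anchor genes all had negative fold changes, with a median of -0.24, the lowest of the role groups. Des, desmin, the muscle intermediate filament (chromosome 1, 75360292 to 75368579), had 258, 172 and 196 FPKM in maternal DSS libraries 1, 2 and 3, against 249, 233 and 207 FPKM in controls 1, 2 and 3. Synm, synemin, which links desmin filaments to the membrane plaques (chromosome 7, 67730161 to 67759742), had 28.9, 19.2 and 15.9 FPKM in maternal DSS libraries 1, 2 and 3, against 33.7, 32.6 and 22.2 FPKM in controls 1, 2 and 3. Its fold change was the largest of the 31 genes (-0.47, SE 0.23, 95% interval -1.02 to 0.08, unadjusted p = 0.084), yet control 3 lay below maternal DSS 1. Synpo2, an actin-bundling protein of dense bodies, had 24.1, 17.5 and 14.4 FPKM in maternal DSS libraries 1, 2 and 3, against 27.6, 25.2 and 18.2 FPKM in controls 1, 2 and 3, and showed the same overlap. Maternal DSS 2 and 3 alone gave log2 fold changes of -0.32 for Des (unadjusted p = 0.024) and -0.53 for Synpo2 (0.02) in limma, against -0.15 and -0.34 with all libraries. The corresponding value for Synm was -0.70 (SE 0.18), against -0.47 with all libraries.

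Among the remaining anchors the log2 fold changes lay between -0.31 for Pgm5 and -0.09 for Pdlim3 and Ldb3. Csrp1, a LIM protein of the actin cytoskeleton and the most abundant anchor, had 292, 249 and 274 FPKM in maternal DSS libraries 1, 2 and 3, against 329, 311 and 288 FPKM in controls 1, 2 and 3. Flna, filamin A, which crosslinks actin in many cell types, had 147, 109 and 91.5 FPKM in maternal DSS libraries 1, 2 and 3, against 145, 155 and 122 FPKM in controls 1, 2 and 3. Vcl, vinculin, a component of adhesion plaques, and Pgm5, or aciculin, a muscle-enriched protein of such plaques, differed by -0.29 (SE 0.15) and -0.31 (SE 0.18) on the log2 scale. Pdlim3 and Pdlim7, which carry PDZ and LIM domains and bind alpha-actinin or tropomyosin, had -0.09 (SE 0.11) and -0.12 (SE 0.13). Without maternal DSS 1 the log2 fold changes were -0.48 for Flna (unadjusted p = 0.0075), -0.26 for Pdlim7 (0.019) and -0.19 for Pdlim3 (0.098) in limma.

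Ldb3 and the small heat shock proteins stood apart through maternal DSS 1. Ldb3, a Z-disc protein best known from striated muscle (chromosome 14, 34526699 to 34590314), had 9.80, 3.51 and 3.14 FPKM in maternal DSS libraries 1, 2 and 3, against 5.70, 6.25 and 3.95 FPKM in controls 1, 2 and 3. Its group means were 5.48 ± 3.74 FPKM in maternal DSS and 5.30 ± 1.20 FPKM in control libraries (SD, n = 3 each), whereas the fold change on the log scale was -0.09 (SE 0.36). Without maternal DSS 1 it was -0.53 (SE 0.17, unadjusted p = 0.016, adjusted p = 0.15 in limma). Hspb6, a small heat shock protein that takes part in smooth muscle relaxation, had 20.2, 10.6 and 13.8 FPKM in maternal DSS libraries 1, 2 and 3, against 15.2, 16.1 and 13.5 FPKM in controls 1, 2 and 3. Hspb7, a small heat shock protein of heart and skeletal muscle, had 12.8, 7.56 and 9.43 FPKM in maternal DSS libraries 1, 2 and 3, against 10.2, 9.18 and 7.67 FPKM in controls 1, 2 and 3. In all 3 genes maternal DSS 1 was the highest of the 6 libraries, and the other maternal DSS libraries lay within or below the range of the controls. Without maternal DSS 1 the log2 fold changes were -0.28 for Hspb6 (SE 0.12, unadjusted p = 0.063) and -0.08 for Hspb7 (SE 0.14) in limma, against -0.04 and 0.11 with all libraries.

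Maternal DSS 1 was also the library with the most skeletal muscle RNA. All 15 skeletal muscle genes had their highest value there, 14 had their next highest in control 2, and 13 had their lowest in maternal DSS 2. The skeletal actin gene Acta1 had 188, 21.4 and 21.1 FPKM in maternal DSS libraries 1, 2 and 3, against 43.8, 76.2 and 28.0 FPKM in controls 1, 2 and 3, and the fast light chain gene Mylpf had 331, 9.88 and 23.2 FPKM in maternal DSS libraries 1, 2 and 3, against 64.9, 101 and 20.2 FPKM in controls 1, 2 and 3. The 12 smooth muscle genes that were highest in maternal DSS 1 were Actg2, Myh11, Mylk, Tpm1, Tpm2, Des, Pdlim3, Pdlim7, Ldb3, Hspb6, Hspb7 and Myocd, where 19.8% of all tested genes were highest in that library. Of these Des, Tpm1, Tpm2, Ldb3, Hspb6, Hspb7, Pdlim3 and Pdlim7 are also expressed in skeletal muscle, and Actg2, Myh11 and Myocd are not markers of it. The part of skeletal muscle RNA in their values was not tested.

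The membrane channel and energy genes were lower in maternal DSS by small amounts. Kcnmb1, the smooth muscle beta subunit of the calcium-activated BK potassium channel (chromosome 11, 33962955 to 33973641), had 3.41, 2.67 and 3.00 FPKM in maternal DSS libraries 1, 2 and 3, against 4.04, 3.49 and 3.43 FPKM in controls 1, 2 and 3. The groups did not overlap, but maternal DSS 1 and control 3 were almost equal (log2 fold change -0.21, SE 0.11, unadjusted p = 0.086 in limma). Ckb, the creatine kinase that supplies ATP in smooth muscle, brain and epithelium, had 76.7, 66.5 and 67.9 FPKM in maternal DSS libraries 1, 2 and 3, against 74.2, 80.0 and 83.6 FPKM in controls 1, 2 and 3. Here control 1 lay below maternal DSS 1, and maternal DSS 2 and 3 were the lowest of the 6 libraries (log2 fold change -0.17, SE 0.09).

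As a share of all FPKM, the muscle transcripts were lowest in maternal DSS 2 and 3. The 20 genes largely restricted to muscle made up 0.887%, 0.618% and 0.664% of the FPKM sum in maternal DSS 1, 2 and 3, against 0.849%, 0.886% and 0.780% in controls 1, 2 and 3. The 11 genes that other cells also make in quantity made up 0.824%, 0.688% and 0.718% in maternal DSS 1, 2 and 3, against 0.820%, 0.838% and 0.791% in controls 1, 2 and 3. As shares, both sets therefore had the same libraries at the bottom. Undivided, the 20 genes summed to 3699.7, 2816 and 3270.3 FPKM in maternal DSS 1, 2 and 3, against 3606, 3578 and 3375 FPKM in controls 1, 2 and 3, with the same order at the bottom. The 11 genes summed to 3439, 3133 and 3538 FPKM in maternal DSS 1, 2 and 3, against 3484, 3383 and 3423 FPKM in controls 1, 2 and 3. For this sum maternal DSS 3 was then the highest library and maternal DSS 2 the lowest. Myl6, the most abundant of the 11, had 1624 FPKM of it in maternal DSS 3. The median of the 11 genes relative to the control mean was 0.02, -0.30 and -0.27 in maternal DSS 1, 2 and 3. In controls 1, 2 and 3 it was 0.06, 0.07 and -0.12, on the log2(FPKM + 1) scale. Not divided by the FPKM of all genes, and so not comparable with these shares, the 15 epithelial marker genes summed to 15200, 14515 and 16431 FPKM in maternal DSS libraries 1, 2 and 3, against 13936, 13008 and 12634 FPKM in controls 1, 2 and 3. The colonocyte gene Car1 led them, with 7014, 5450.3 and 7277 FPKM in maternal DSS libraries 1, 2 and 3, against 5632, 5088 and 4528 FPKM in controls 1, 2 and 3. All genes summed to 417270, 455557 and 492719 FPKM in maternal DSS libraries 1, 2 and 3, against 424819, 403673 and 432783 FPKM in controls 1, 2 and 3. The median log2 fold change of the 15 epithelial genes was 0.11, with 11 genes higher and 4 lower, and 1 (Krt20, higher) at an unadjusted p under 0.05. Whether a different ratio of mucosa to muscle in the pieces of colon moved the muscle values was not tested.

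**Figure D3:**
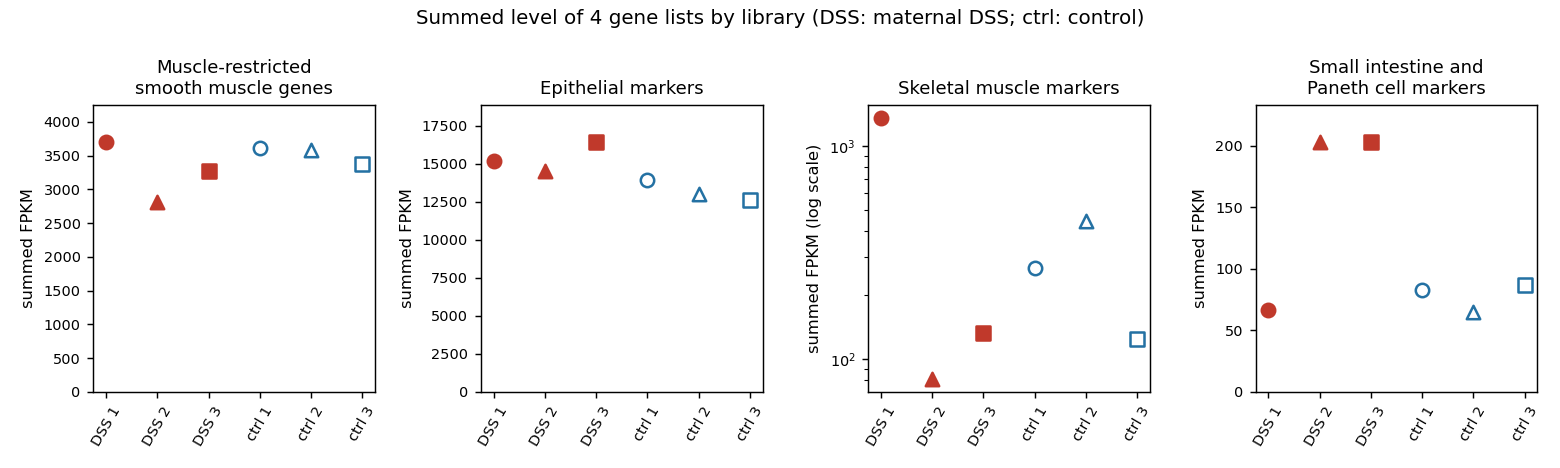
Summed FPKM per library of the 20 muscle-restricted smooth muscle genes, 15 epithelial, 15 skeletal muscle (log axis) and 12 small intestine and Paneth cell genes; filled red symbols are maternal DSS and open blue symbols control libraries. Maternal DSS 1 has the highest smooth muscle sum (3700 FPKM) and skeletal muscle sum (1355 FPKM), and maternal DSS 2 the lowest of both (2816 and 80.9 FPKM).

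The size of the difference went with transcript length. The 6 genes whose longest annotated transcript is under 2000 nt had a median log2 fold change of -0.08, the 14 from 2000 to under 4000 nt had -0.15, and the 11 of 4000 nt or more had -0.29. All tested genes in these length classes had medians of 0.06 (3489 genes), -0.02 (5117 genes) and -0.12 (4598 genes). The muscle genes thus lay below the median of each class, by similar steps. In the longest class the muscle genes had medians of 0.05, -0.39 and -0.59 in maternal DSS 1, 2 and 3, against 0.10, 0.13 and -0.22 in controls 1, 2 and 3, relative to the control mean. All genes of that class had 0.01, -0.14 and -0.25 in maternal DSS 1, 2 and 3, against 0.04, 0.05 and -0.09 in controls 1, 2 and 3, so the same libraries were low in both.

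**Figure D4:**
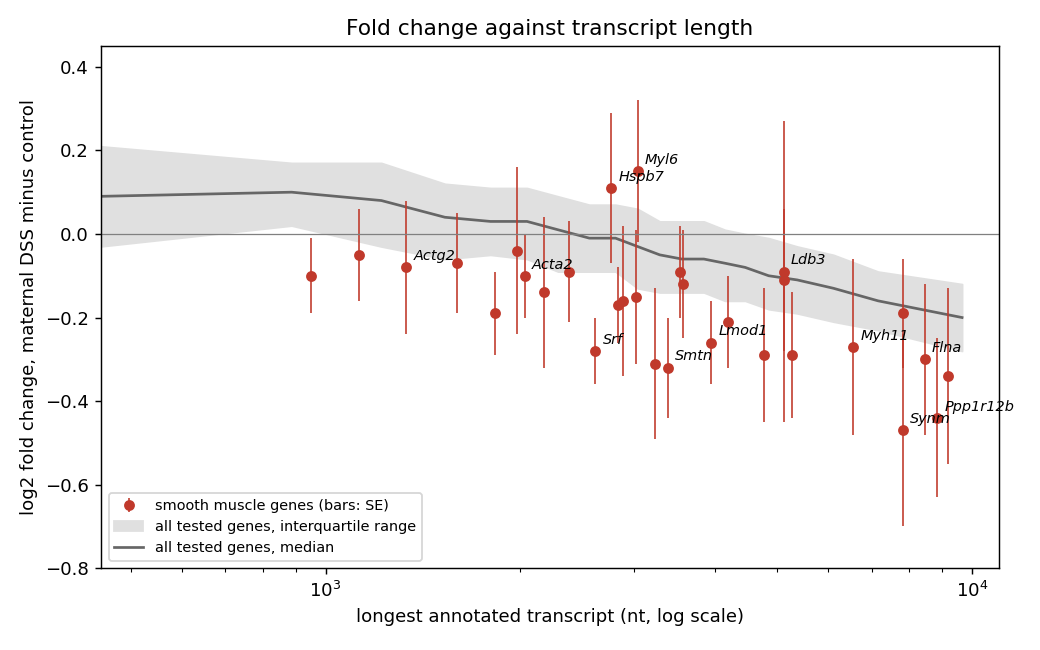
Log2 fold change (maternal DSS minus control) of the 31 genes against the length of their longest annotated transcript (log axis), with standard errors; the grey line and band are the median and interquartile range of all tested genes. The median of the muscle genes passes from -0.08 under 2000 nt to -0.29 at 4000 nt or more, and that of all genes from 0.06 to -0.12.

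With the trend of each library on transcript length removed, an alternative added after the data were seen, the median of the 31 genes was -0.13 against 0.005 for all genes, with 28 negative. The library medians were then 0.01, -0.25 and -0.20 in maternal DSS 1, 2 and 3, against 0.04, 0.04 and -0.09 in controls 1, 2 and 3. Srf had a log2 fold change of -0.26 and an unadjusted p of 0.005 in that fit. The longest annotated transcript need not be the one expressed in colon.

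For the lists that follow, the shares over all 13594 tested genes were 59.7% negative, 5.41% lower and 2.42% higher at an unadjusted p under 0.05, and 9.14% lower without overlap. These shares are not matched for transcript length, and all tested genes of 4000 nt or more had a median of -0.12. The part of length in the medians of the lists was not tested. Of 30 tested genes of contraction signalling 25 had negative fold changes (median -0.14), with 1 at an unadjusted p under 0.05 and 0 adjusted. That gene, Kcnma1, encodes the pore of the BK channel that Kcnmb1 modulates (chromosome 14, 23292288 to 24005110), and had 5.22, 4.76 and 4.50 FPKM in maternal DSS libraries 1, 2 and 3, against 6.53, 6.42 and 6.26 FPKM in controls 1, 2 and 3. All maternal DSS libraries were below all controls (log2 fold change -0.35, SE 0.08, unadjusted p = 0.0037, adjusted p = 0.62 in limma). With the length trend removed its fold change was -0.11 (unadjusted p = 0.34).

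Of 9 tested SRF cofactors and repressors all had negative fold changes (median -0.13), with 1 at an unadjusted p under 0.05. Mrtfa, an SRF coactivator that senses free actin, had 5.66, 5.15 and 4.82 FPKM in maternal DSS libraries 1, 2 and 3, against 6.31, 6.29 and 5.89 FPKM in controls 1, 2 and 3, without overlap (log2 fold change -0.21, SE 0.09, unadjusted p = 0.045). Of 24 tested genes of the dystrophin complex and dense plaques 21 were negative (median -0.20), with 3 lower at an unadjusted p under 0.05. These were Lims2 and the adhesion plaque genes Zyx and Pxn, which are made in many cell types. Pxn, which encodes paxillin, had 27.6, 25.4 and 24.2 FPKM in maternal DSS libraries 1, 2 and 3, against 29.6, 30.9 and 29.4 FPKM in controls 1, 2 and 3. None of the 3 genes overlapped between the groups (log2 fold changes -0.21, -0.17 and -0.21 for Lims2, Zyx and Pxn). The 13 non-muscle actomyosin genes had a median of -0.02, with 7 negative, 6 positive and 2 lower at an unadjusted p under 0.05 (Myh10 and Cnn2).

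Lists of the other cells of the colon wall were examined beside the muscle genes. The 9 tested genes of mural cells of vessels had a median log2 fold change of -0.19 with 6 negative and 1 (Ednra, lower) at an unadjusted p under 0.05. Their most abundant gene, Rgs5, a pericyte marker, had 68.1, 64.3 and 71.1 FPKM in maternal DSS libraries 1, 2 and 3, against 69.8, 66.4 and 66.5 FPKM in controls 1, 2 and 3. The 6 genes of interstitial cells of Cajal, the pacemakers of the gut, had a median of -0.09, with 5 negative and 1 positive. The most abundant of them, Thbs4 and Cd34, had log2 fold changes of -0.03 and 0.05. The chloride channel gene Ano1 (-0.31) had 22.0, 25.9 and 20.9 FPKM in maternal DSS libraries 1, 2 and 3. In controls 1, 2 and 3 Ano1 had 30.5, 30.5 and 25.0 FPKM (unadjusted p = 0.028 in limma). The 13 tested genes of enteric neurons and glia had a median of -0.15, with 11 negative and 2 positive. The most abundant of them, Vip, had 19.5, 29.0 and 40.5 FPKM in maternal DSS libraries 1, 2 and 3. Its values in controls 1, 2 and 3 were 27.1, 28.1 and 27.9 FPKM (log2 fold change 0.04). Nos1 encodes the synthase of the relaxing transmitter nitric oxide. It had 2.25, 1.61 and 1.34 FPKM in maternal DSS libraries 1, 2 and 3. In controls 1, 2 and 3 Nos1 had 3.28, 2.94 and 2.23 FPKM (unadjusted p = 0.017 in limma). Fibroblast, endothelial and mesothelial genes had medians of -0.08, -0.02 and -0.05, and immune and adipocyte genes 0.08 and 0.24. The 9 tested small intestine and Paneth cell genes all had positive fold changes (median 0.85), and 2 of them, the intelectin gene Itln1 and the matrilysin gene Mmp7, were higher at an unadjusted p under 0.05. In limma the log2 fold change was 1.65 for Itln1 (unadjusted p = 0.033) and 0.85 for Mmp7 (unadjusted p = 0.026). Itln1 had 0.997, 7.30 and 11.4 FPKM in maternal DSS libraries 1, 2 and 3, against 0.368, 0.778 and 1.71 FPKM in controls 1, 2 and 3, so maternal DSS 2 and 3 stood out. None of the genes in these lists had an adjusted p under 0.05 in limma.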

How the data were processed

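The authors deposited FPKM values per gene for 6 colon RNA libraries, and all 6 sample columns were used. Libraries were of the stranded mRNA type, per the labels' protocols. Without giving roles, the submitters' processing notes list mm10, DESeq2, StringTie 2.1.3b, HISAT2 2.1.0, Trimmomatic 0.38 and FastQC 0.11.7. Annotation and strand setting are not given in the sources used here. Tagln, Vcl, Synm, Smtn, Hspb6 and Kcnmb1 overlap a gene on the other strand that is itself expressed (up to 29.6 FPKM on average for Pcsk7 beside Tagln), so their values are uncertain to that extent.

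Depth is unknown, so no counting interval is given. A gene was tested where 3 or more libraries had 1 FPKM or more. The fit was limma 3.58.1 in R 4.3.3 on log2(FPKM + 1), with a mean-variance trend and group as the only term. P-values were adjusted by Benjamini-Hochberg over all 13594 genes, with a threshold of 0.05, and the fit was tested on simulated data. Fold changes on this scale understate the change of low genes. The fit was used because the table holds no counts.

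The 31 genes and the other lists were chosen with earlier results of these data known, so lists are described by counts and medians. By rule, values per library are given for members with an unadjusted p under 0.05, non-overlapping groups or the highest level of a role group, and for Acta2, Actg2, Myh11, Tagln, Cnn1, Des, Myocd and Srf, and other lists are named by their genes with such a p or the 2 highest. Other members shown per library were chosen after their values were seen. Coordinates and promoters are from RefSeq GRCm38.p6, which matched all 31 symbols (promoter windows: 27), and transcript lengths from GENCODE M21, which gave one for 97.1% of tested genes. Alternatives were a pseudocount of 0.1, no filter, a filter at 5 FPKM, median-ratio and TPM scaling, library weights, a replicate block, leaving out each library and removing the length trend. Replicate numbers did not consistently pair the libraries.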

Additional observations from a re-analysis of the deposited data

How the results depend on the processing

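The median log2 fold change of the 31 genes stayed negative in every alternative run, from -0.11 after median-ratio scaling to -0.36 with library weights, and the count with an adjusted p under 0.05 stayed at 0 except with library weights. TPM scaling moved the median of all genes from -0.037 to -0.144. Relative to the median of all genes the 31 lay at -0.13 as reported, -0.13 after TPM scaling, -0.14 with the length trend removed and -0.12 after median-ratio scaling. Library weights were 5.47 for maternal DSS 2 and 0.249 for maternal DSS 1. With them 25 of the 31 genes, and 4933 of all 13594, passed the adjusted threshold, and 27 of the 31 the unadjusted one. The unadjusted count of 3 became 5 after TPM scaling, and the count of 2 genes without overlap became 1 with a filter at an FPKM of 5 (29 genes tested), 4 with the length trend removed and 4 after scaling by median ratios; the cause was not tested. Leaving out single libraries gave unadjusted counts of 1 to 21, non-overlapping counts of 2 to 22 and medians of -0.30 to -0.12.

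In some alternative 9 of the 31 genes changed sign, 7 of them in the single fit without maternal DSS 2. Hspb6 had 0.00 after median-ratio scaling, Ppp1r14a 0.03 and Hspb7 -0.23 with library weights, and Ldb3 0.02 with the length trend removed. Over the fits that left out 1 library, fold changes ranged from -0.53 to 0.17 for Ldb3, -0.28 to 0.16 for Hspb6, -0.08 to 0.27 for Hspb7, -0.20 to 0.07 for Actg2, -0.09 to 0.03 for Myl9, -0.19 to 0.02 for Cnn1, -0.14 to 0.01 for Tagln and -0.19 to 0.03 for Pdlim3. The difference in the Actg2 to Acta2 ratio was 0.023 with all libraries and -0.039 to 0.12 without single libraries.

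Libraries with the same replicate number did not consistently deviate together (r = 0.276, -0.384 and 0.404 for numbers 1, 2 and 3). Maternal DSS 1 went most with control 2 (r = 0.512) and maternal DSS 2 with control 3 (r = 0.38), so the numbers were not used as pairs. With a replicate block the unadjusted count was 9 of 31, the adjusted count 0, and the ratio difference 0.023 (exact sign-flip p = 1, where 0.25 is the smallest possible).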
